A study of Mus musculus with 16 samples.

Results

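The 38 genes described here mark macrophages and their activation, and all 38 were found among the 33641 gene symbols of the tables. They were taken as a fixed list of symbols, read in all 16 libraries. By role they are 4 genes of recruited or lipid-associated macrophages (Ccr2, Gpnmb, Lgals3 and Clec4n), 5 genes of resident-type macrophages (Lyve1, Folr2, Cbr2, Cd163 and Mrc1), 10 lineage genes, 5 Fc receptor and adaptor genes, 2 other lectin genes, 5 pan-leukocyte genes and 7 effector genes. The libraries were made from the left ventricle of the heart and from subcutaneous white adipose tissue (scWAT) of C57BL/6J mice aged 28 weeks. Mice labelled Adipo-HuR KO, in which the RNA-binding protein HuR (gene Elavl1) was to be deleted in adipocytes, were compared with mice labelled wild-type. Mice A25, A29, A30 and A31 gave the 4 knockout-labelled hearts, and A5, A7, A8 and A14 the 4 wild-type hearts. Mice A24, A26 and A30 gave the 3 knockout-labelled scWAT libraries, and A12 joined the same 4 wild-type mice for 5 wild-type scWAT libraries. Each number is a mouse, so 11 mice gave the 16 libraries, and mice A5, A7, A8, A14 and A30 gave both tissues. The labels name no Cre driver and no control allele for the wild-type mice, and they state no other treatment.

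Macrophages arise from embryonic precursors that settle in a tissue and maintain themselves there, or from blood monocytes that enter it and differentiate. In the mouse heart, resident-type macrophages carry Lyve1, Folr2, Cbr2, Cd163 and Mrc1, and monocyte-derived cells carry Ccr2, the receptor for the chemokine CCL2. Macrophages that take up much lipid or cell debris make lysosomal and lectin genes such as Gpnmb and Lgals3. In adipose tissue, macrophages of the resident type are abundant, and they clear lipid and dying adipocytes.

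Values are TPM as deposited, a level per transcript length scaled to the same total in each library, so levels of different genes can be set side by side. The depth of each library is unknown. Libraries are of whole tissue, in which more cells of a type and more RNA per cell cannot be told apart. In heart, Elavl1 overlapped between the groups, at 8.45 to 15.9 TPM in the libraries labelled knockout against 6.66 to 12.6 TPM in wild-type hearts. In scWAT it went against its label, with 42.9, 42 and 36.2 TPM in the libraries labelled knockout against 19 to 34.5 TPM in the wild-type libraries, so groups are called by their labels throughout. A gene-level TPM is no measure of single exons, so the deletion itself was not checked. Heart library A29, labelled knockout, stood with the wild-type hearts for these genes: it lay within the wild-type range for 19 of the 38 and below it for the other 19. Neither count has a share over all genes beside it, so they do not show a trait particular to the 38. Mitochondrially encoded transcripts took 43.4% to 48.9% of the TPM in A25, A30 and A31, 55.7% in A29 and 51.9% to 60.6% in the wild-type hearts, and their part in the results was not tested. With mitochondrially encoded genes removed, limma gave an unadjusted p under 0.05 in heart for 29 of 37 members with higher levels. This held for 2364 of the 13168 genes tested. In the lower direction it held for 1 member and 1102 genes, and 0 members passed after adjustment. scWAT library A26, labelled knockout, held the lymphocyte genes at levels no other scWAT library had, with 8 T cell genes summing to 423 TPM against at most 14.7 TPM elsewhere. Adipoq, the adipocyte hormone gene, was at 3299.8 to 6919.5 TPM in scWAT and at most 1.72 TPM in heart, and Myh6, a cardiac myosin, at 1012 to 4769 TPM in heart, so both tissue labels matched these markers. The scWAT libraries also held skeletal muscle transcripts. A list of 7 skeletal muscle genes summed to 2962, 230 and 6174 TPM in knockout-labelled scWAT of A24, A26 and A30. The wild-type scWAT libraries had 6.97 to 689 TPM. The part of muscle in the scWAT values was not tested.

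In heart, 37 of the 38 genes were higher in A25, A30 and A31 than in every wild-type heart, and Retnla was lower. Groups that did not overlap in this way were found for 45.3% of all tested genes in the higher direction and 3.65% in the lower, and with A29 kept in for 0 of the 38 members in the higher direction, against 3.71%. Summed over the 38 genes, the level was 1495, 1681 and 1997 TPM in these hearts and 182 TPM in A29, against 183, 249, 313 and 215 TPM in the wild-type hearts. With all 4 knockout-labelled hearts, no gene of the 38 passed the threshold (limma on log2(TPM + 1), p adjusted over every gene tested after Benjamini and Hochberg, threshold 0.05). The lowest adjusted p among the 37 tested members was 0.142, and over all 11981 tested genes 0.0501% were called higher and 0% lower. Without adjustment, p was under 0.05 for 34 members with higher levels, against 20.9% of genes, and for 1 with a lower level, against 3.66%. Atp6v0d2 had a mean under 1 TPM and was not tested.

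Fold changes in heart are given after subtracting the median of all tested genes, 0.26 with all 8 libraries and 0.39 without A29, while the tests used the values before subtraction. Errors after ± are standard errors, and every adjusted p is from limma over all tested genes. The 37 tested members had a median log2 fold change of 1.29 above that of all genes. A value of at least 1 was reached by 29 of the 37, against 4.15% of all tested genes, and of at least 2 by 3, against 0.534%. Without A29, 36 members passed as higher and Retnla passed as lower, against 34.8% and 4.16% of the 12081 genes tested. The median log2 fold change of the 37 was then 1.82, 33 of 37 reached at least 1, against 7.42% of all genes, and 14 reached at least 2, against 1.43%. A29 was left out after its values had been seen, so the adjusted p-values without it describe the other hearts and are no independent test. With all 8 hearts and array weights, which let limma give a deviating library less weight, 36 members passed as higher and 1 as lower, against 43.1% and 22.7% of genes. The weights were estimated from the same values, so these calls are no independent test either. Without A29 and with median-of-ratios scaling the counts were 35 and 1, against 19.5% and 20.9%. Of the 37, 8 had a wild-type mean under 1 TPM and were tested only through the higher group (Fcgr4, Clec10a, Gpnmb, Clec7a, Lyz1, Fcgr1, Ccr2 and Cx3cr1). Among the other 29, 28 were higher and 1 was lower without A29. The 34.8% and 4.16% above were not limited to genes with a wild-type mean of at least 1 TPM.

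**Figure D1:**
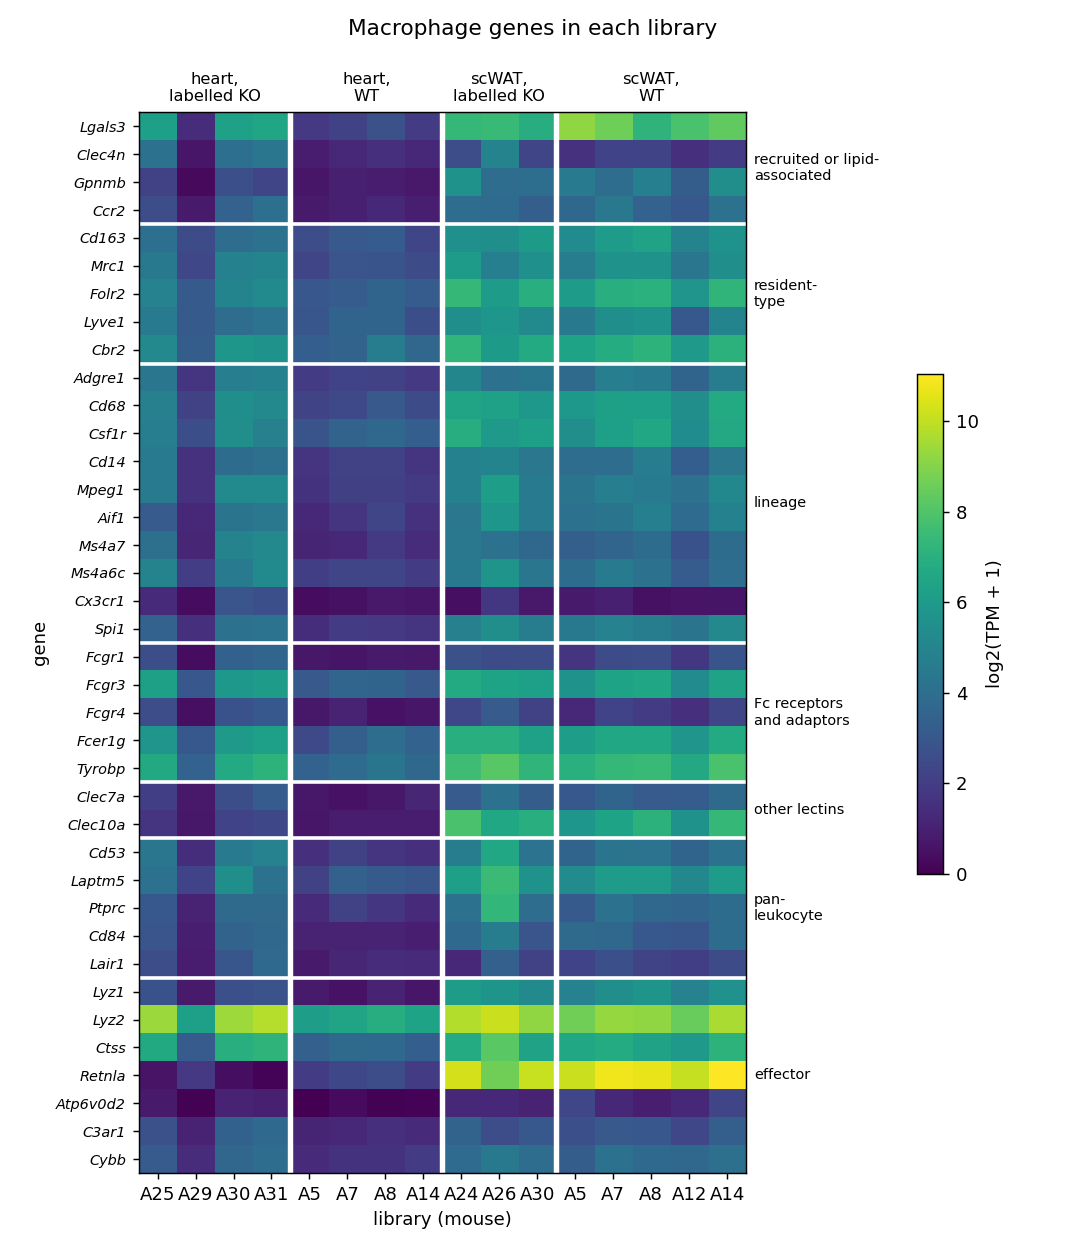
Levels of the 38 genes (rows, grouped by role) in each of the 16 libraries (columns, named by mouse), as log2(TPM + 1) in colour. Columns A25, A30 and A31 of the knockout-labelled hearts are brighter than the wild-type hearts for 37 genes, A29 looks like the wild-type hearts, and Retnla runs the other way.

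The 4 genes of recruited or lipid-associated macrophages were all higher in A25, A30 and A31 and covered a wide range, with Lgals3 at the top of the 38 members and Gpnmb near the bottom. Lgals3, which encodes galectin-3, a galactoside-binding lectin of phagocytes and injured tissue, stood at 73.9, 77.4 and 90.4 TPM in the knockout-labelled hearts A25, A30 and A31, with 1.67 TPM in A29, against 2.57, 3.54, 5.63 and 2.94 TPM in the wild-type hearts (log2 fold change 2.68 ± 0.94, adjusted p = 0.142). The 3 high hearts lay far above every wild-type heart and A29 lay below all of them. Without A29 the log2 fold change was 3.78 ± 0.23 (adjusted p = 4.55e-06), the highest of the 38 members. Clec4n, which encodes dectin-2, a receptor for fungal mannans, stood at 17, 15.2 and 19 TPM in the knockout-labelled hearts A25, A30 and A31, with 0.607 TPM in A29, against 0.829, 1.44, 1.79 and 1.33 TPM in the wild-type hearts (log2 fold change 1.83 ± 0.68, adjusted p = 0.142). The hearts separated in the same way, and without A29 the value was 2.56 ± 0.21 (adjusted p = 1.55e-05).

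Ccr2, the receptor that draws monocytes out of the marrow and into tissue, stood at 5.13, 9.95 and 15.2 TPM in the knockout-labelled hearts A25, A30 and A31, with 0.737 TPM in A29, against 0.725, 0.943, 1.36 and 0.916 TPM in the wild-type hearts (log2 fold change 1.49 ± 0.56, adjusted p = 0.142). A31 was the highest and A25 the lowest of the 3, so the high hearts differed among themselves more for Ccr2 than for Lgals3. Gpnmb, a transmembrane glycoprotein of lysosome-rich phagocytes, stood at 3.36, 5.56 and 3.92 TPM in the knockout-labelled hearts A25, A30 and A31, with 0.224 TPM in A29, against 0.592, 0.935, 0.767 and 0.689 TPM in the wild-type hearts (log2 fold change 0.8 ± 0.44, adjusted p = 0.178). Both lay above every wild-type heart in A25, A30 and A31, and without A29 the log2 fold changes were 1.99 ± 0.31 (adjusted p = 0.000322) for Ccr2 and 1.19 ± 0.19 (adjusted p = 0.000244) for Gpnmb.

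The 5 resident-type genes were higher too in these 3 hearts, with a median log2 fold change of 0.93 with all hearts. Lyve1, a hyaluronan receptor that lymphatic endothelium also carries, stood at 22.3, 14.3 and 17.2 TPM in the knockout-labelled hearts A25, A30 and A31, with 7.77 TPM in A29, against 6.84, 10.8, 10.9 and 5.32 TPM in the wild-type hearts (log2 fold change 0.5 ± 0.33, adjusted p = 0.191). It had the smallest positive fold change of the 38 members, and A30, the lowest of the 3 high hearts, was nearer to wild-type A8 than to A25. Without A29 the value was 0.64 ± 0.27 (adjusted p = 0.014), and this call was lost when median-of-ratios scaling was added (adjusted p = 0.13). Cd163, the scavenger receptor for haemoglobin bound to haptoglobin, stood at 15.5, 14.6 and 16.6 TPM in the knockout-labelled hearts A25, A30 and A31, with 4.94 TPM in A29, against 5.1, 7.52, 8.38 and 3.99 TPM in the wild-type hearts (log2 fold change 0.61 ± 0.37, adjusted p = 0.181). The 3 high hearts were close to one another for Cd163 and lay above the wild-type range.

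Folr2, the folate receptor beta, stood at 28.5, 30.6 and 37.3 TPM in the knockout-labelled hearts A25, A30 and A31, with 7.64 TPM in A29, against 7.04, 8.36, 10.9 and 8.19 TPM in the wild-type hearts (log2 fold change 1.05 ± 0.41, adjusted p = 0.142). Mrc1, the mannose receptor CD206, stood at 21, 27.7 and 30.2 TPM in the knockout-labelled hearts A25, A30 and A31, with 4.14 TPM in A29, against 3.99, 6.49, 6.39 and 4.75 TPM in the wild-type hearts (log2 fold change 1.24 ± 0.5, adjusted p = 0.142). For both genes A29 lay inside the wild-type range. Cbr2, a carbonyl reductase, stood at 35.7, 55.8 and 48.2 TPM in the knockout-labelled hearts A25, A30 and A31, with 8.5 TPM in A29, against 8.87, 10.4, 24.3 and 11.6 TPM in the wild-type hearts (log2 fold change 0.93 ± 0.52, adjusted p = 0.191). The wild-type heart A8 was the highest of its group for Cbr2 and still lay below A25. Without A29 the log2 fold changes were 1.4 ± 0.19 (adjusted p = 0.000115) for Folr2, 1.71 ± 0.22 (adjusted p = 0.000107) for Mrc1, 1.38 ± 0.31 (adjusted p = 0.00196) for Cbr2 and 0.85 ± 0.24 (adjusted p = 0.00341) for Cd163.

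**Figure D2:**
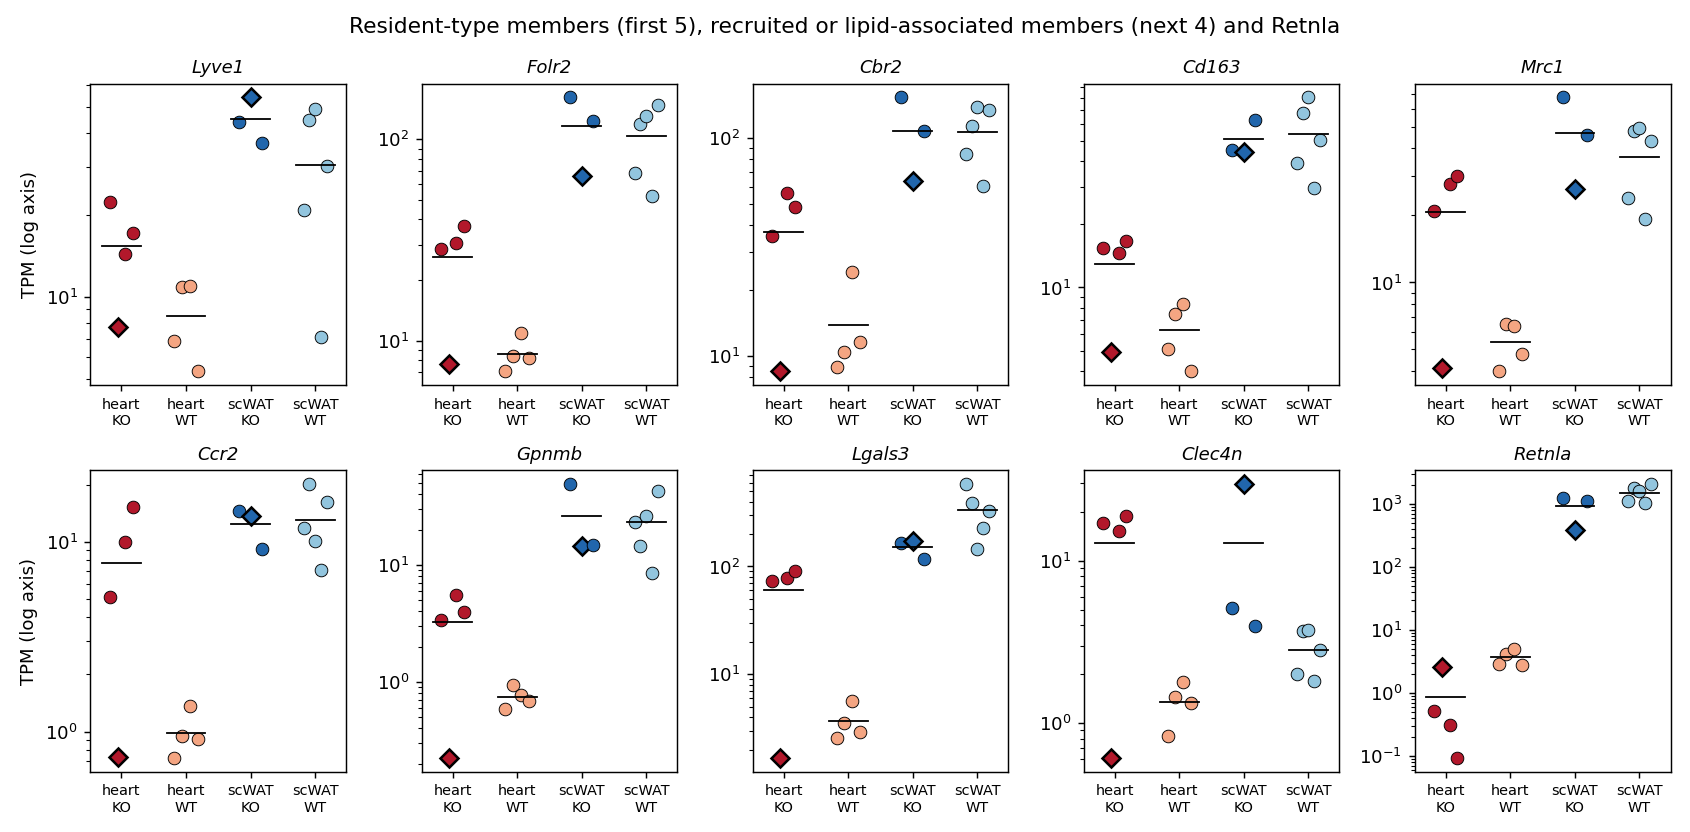
TPM (log axis) of the 5 resident-type genes, the 4 recruited or lipid-associated genes and Retnla in each library, by tissue and genotype label (KO: labelled knockout; WT: wild-type); lines are group means and diamonds are heart A29 and scWAT A26. In heart, the 3 knockout-labelled libraries other than A29 lie above all wild-type hearts for the first 9 genes and below them for Retnla.

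Within a library, the recruited or lipid-associated genes lay on average closer to the resident-type genes in A25, A30 and A31 than in any other heart. The mean log2(TPM + 1) of the 4 recruited or lipid-associated genes minus that of the 5 resident-type genes was -0.84, -0.59 and -0.54 in the knockout-labelled hearts A25, A30 and A31 and -2.09 in A29, against -1.8, -1.92, -2.02 and -1.65 in the wild-type hearts. The 3 high hearts lay apart from the wild-type range and A29 lay just below it. The group difference was 0.83 with all hearts and 1.19 without A29, made up of 1.95 and 2.77 for the recruited or lipid-associated genes less 1.12 and 1.58 for the resident-type genes. The size of that difference depended on the pseudocount, being 1.05 with 0.25 and 0.395 with 5 in place of 1 (all hearts). Ccr2 and Gpnmb averaged under 1 TPM in the wild-type hearts, a level at which the pseudocount weighs most. These differences in mean log2 value are descriptions of chosen genes and carry no test. Gene by gene without A29, the log2 fold changes of Lgals3, Clec4n and Ccr2 (3.78, 2.56 and 1.99) exceeded that of every resident-type gene. That of Gpnmb (1.19) was below those of Mrc1, Folr2 and Cbr2 (1.71, 1.4 and 1.38), so the 4 genes did not move alike.

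**Figure D3:**
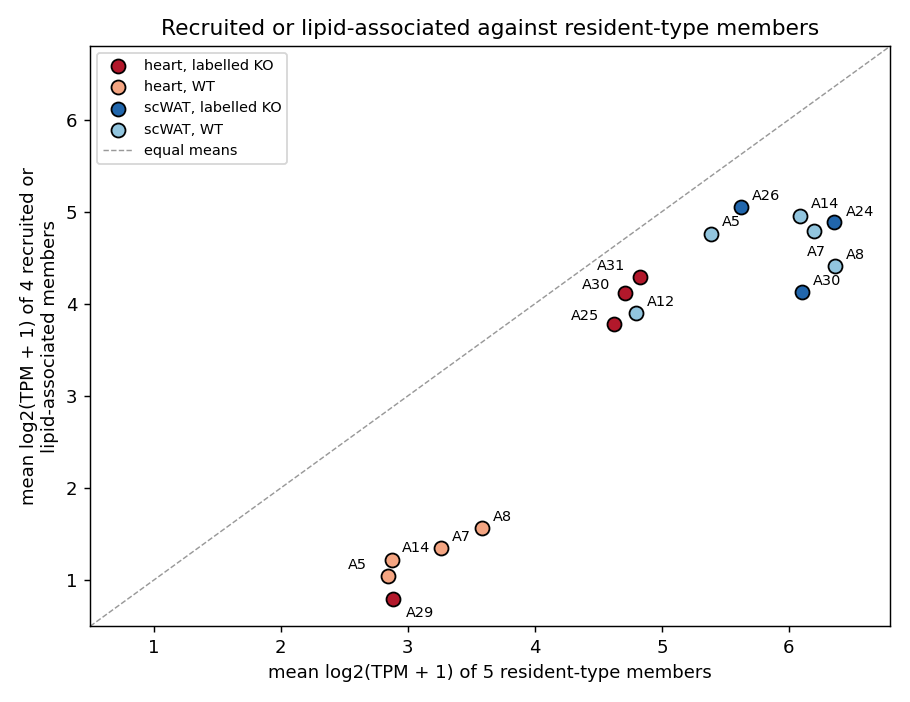
Mean log2(TPM + 1) of the 4 recruited or lipid-associated genes against that of the 5 resident-type genes in each library; the dashed line marks equal means. Heart libraries A25, A30 and A31 lie nearer the line than the wild-type hearts and A29, while the groups of scWAT libraries overlap.

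Each gene was also divided by Adgre1, which encodes F4/80, a surface receptor of mouse macrophages. These ratios of TPM were chosen after the values had been seen and carry no test. Lyve1 per Adgre1 was 1.19, 0.56 and 0.612 in A25, A30 and A31 and 3.46 in A29, against 2.09 to 3.18 in the wild-type hearts. Cd163 per Adgre1 was 0.821, 0.571 and 0.592 in A25, A30 and A31 and 2.2 in A29, against 1.57 to 2.45 in the wild-type hearts. Folr2, Cbr2 and Mrc1 per Adgre1 were lower in those 3 hearts than in any wild-type heart as well. Lgals3 per Adgre1 went the other way, at 3.93, 3.03 and 3.23 in A25, A30 and A31 and 0.746 in A29, against 0.946 to 1.64 in the wild-type hearts. Clec4n per Adgre1 was also higher in the 3 hearts than in any wild-type heart. Ccr2 per Adgre1 overlapped, at 0.273, 0.39 and 0.544 in A25, A30 and A31 against 0.257 to 0.397 in the wild-type hearts. Gpnmb per Adgre1 was 0.178, 0.218 and 0.14 in A25, A30 and A31, against 0.218 to 0.271 in the wild-type hearts. So Lgals3 and Clec4n were higher per Adgre1 in the 3 hearts, and Ccr2 and Gpnmb were not.

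The lineage genes were higher together in A25, A30 and A31. Adgre1 itself stood at 18.8, 25.5 and 28 TPM in the knockout-labelled hearts A25, A30 and A31, with 2.24 TPM in A29, against 2.72, 3.67, 3.43 and 2.54 TPM in the wild-type hearts (log2 fold change 1.62 ± 0.59, adjusted p = 0.142, and 2.22 ± 0.21, adjusted p = 2.89e-05, without A29). Spi1, which encodes PU.1, the ETS-family factor that directs myeloid fate, stood at 9.92, 16.6 and 17.6 TPM in the knockout-labelled hearts A25, A30 and A31, with 1.77 TPM in A29, against 1.74, 2.82, 2.57 and 2.24 TPM in the wild-type hearts (log2 fold change 1.33 ± 0.52, adjusted p = 0.142, and 1.82 ± 0.24, adjusted p = 0.000133, without A29). Csf1r, the receptor for the survival factors CSF1 and IL-34, stood at 25, 43.1 and 26.7 TPM in the knockout-labelled hearts A25, A30 and A31, with 5.36 TPM in A29, against 6.32, 10.5, 11.7 and 8.94 TPM in the wild-type hearts (log2 fold change 0.81 ± 0.5, adjusted p = 0.214, and 1.25 ± 0.25, adjusted p = 0.00092, without A29). Csf1r had the smallest fold change of the 10 lineage genes, and its unadjusted p was 0.0561, the one of the 10 not under 0.05. Per Adgre1, Csf1r was 1.33, 1.69 and 0.953 in A25, A30 and A31, against 2.32 to 3.52 in the wild-type hearts.

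Ms4a7, a tetraspan membrane protein of macrophages, showed the widest step of the lineage genes, with 15.7, 29.7 and 35.9 TPM in the knockout-labelled hearts A25, A30 and A31, with 1.27 TPM in A29, against 1.23, 1.39, 2.7 and 1.62 TPM in the wild-type hearts (log2 fold change 2.17 ± 0.72, adjusted p = 0.142, and 2.93 ± 0.3, adjusted p = 5.66e-05, without A29). Cx3cr1, the fractalkine receptor, stood at 1.57, 6.41 and 5.48 TPM in the knockout-labelled hearts A25, A30 and A31, with 0.281 TPM in A29, against 0.272, 0.396, 0.689 and 0.598 TPM in the wild-type hearts (log2 fold change 1.01 ± 0.48, adjusted p = 0.158, and 1.36 ± 0.33, adjusted p = 0.0029, without A29). A30 and A31 were well above A25 for Cx3cr1, and the wild-type levels were under 1 TPM. Cd14, the co-receptor for bacterial lipopolysaccharide, was highest in A25, at 22.7 TPM, against 2.27 to 3.58 TPM in the wild-type hearts. Cd68, a lysosomal glycoprotein, Mpeg1, a pore-forming protein of phagosomes, Aif1, an actin-binding protein also called IBA1, and Ms4a6c had log2 fold changes of 1.57, 1.97, 1.29 and 1.79 with all 8 hearts. The median of the 10 lineage genes was 1.46 with all hearts and 2.02 without A29.

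Fc receptors bind the constant part of antibodies, and they signal through adaptors that carry an activation motif (ITAM). Fcgr1, the high-affinity IgG receptor, stood at 5.2, 9.86 and 11 TPM in the knockout-labelled hearts A25, A30 and A31, with 0.308 TPM in A29, against 0.655, 0.525, 0.75 and 0.707 TPM in the wild-type hearts (log2 fold change 1.53 ± 0.58, adjusted p = 0.142, and 2.1 ± 0.24, adjusted p = 8.13e-05, without A29). Fcgr4 stood at 5.02, 5.84 and 7.24 TPM in the knockout-labelled hearts A25, A30 and A31, with 0.364 TPM in A29, against 0.633, 1.15, 0.438 and 0.587 TPM in the wild-type hearts (log2 fold change 1.21 ± 0.49, adjusted p = 0.142, and 1.66 ± 0.2, adjusted p = 9.00e-05, without A29). The wild-type hearts reached at most 0.75 TPM for Fcgr1 and 1.15 TPM for Fcgr4, and A29 was the lowest of the 8 hearts for both. Fcgr3, a low-affinity IgG receptor, stood at 57.7 to 76.8 TPM in A25, A30 and A31, against 7.4 to 11 TPM in the wild-type hearts. The adaptor Tyrobp (DAP12) stood at 103, 106 and 141 TPM in the knockout-labelled hearts A25, A30 and A31, with 10.1 TPM in A29, against 10.05, 13.5, 18.5 and 12.2 TPM in the wild-type hearts (log2 fold change 1.93 ± 0.66, adjusted p = 0.142, and 2.64 ± 0.21, adjusted p = 1.55e-05, without A29), and the adaptor Fcer1g, the shared gamma chain, at 53 to 73.7 TPM in A25, A30 and A31, against 4.42 to 14.6 TPM in the wild-type hearts. The median log2 fold change of these 5 was 1.7 with all hearts and 2.29 without A29, beside 1.66 and 2.28 for the recruited or lipid-associated genes and 0.93 and 1.38 for the resident-type genes.

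The other 2 lectins had smaller log2 fold changes, with a median of 0.9 with all hearts and 1.18 without A29. Clec7a, which encodes dectin-1, a receptor for beta-glucan, stood at 3.12 to 8.31 TPM in A25, A30 and A31, against 0.47 to 1.26 TPM in the wild-type hearts (log2 fold change 1.12 ± 0.44, adjusted p = 0.142, and 1.46 ± 0.28, adjusted p = 0.000826, without A29). Clec10a, a galactose-type lectin linked in mice to alternatively activated macrophages, stood at 2.3 to 4.2 TPM, against 0.578 to 0.868 TPM in the wild-type hearts (log2 fold change 0.69 ± 0.33, adjusted p = 0.149, and 0.9 ± 0.2, adjusted p = 0.000839, without A29). Per Adgre1, Clec10a was 0.122, 0.142 and 0.15 in A25, A30 and A31, against 0.212 to 0.322 in the wild-type hearts, the direction of the resident-type genes.

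Pan-leukocyte genes followed the lineage genes. Cd53, a tetraspanin of all leukocytes, stood at 18.9, 22.2 and 28.4 TPM in the knockout-labelled hearts A25, A30 and A31, with 1.72 TPM in A29, against 1.89, 3.35, 2.26 and 1.85 TPM in the wild-type hearts (log2 fold change 1.82 ± 0.63, adjusted p = 0.142, and 2.47 ± 0.23, adjusted p = 2.89e-05, without A29). Ptprc, which encodes the phosphatase CD45, stood at 7.13, 13.2 and 12.9 TPM in the knockout-labelled hearts A25, A30 and A31, with 1.14 TPM in A29, against 1.51, 3.43, 2.36 and 1.55 TPM in the wild-type hearts (log2 fold change 1.04 ± 0.53, adjusted p = 0.172, and 1.52 ± 0.28, adjusted p = 0.000745, without A29). Laptm5, a lysosomal membrane protein, was highest in A30, at 43.6 TPM, with 16.5 and 16.8 TPM in A25 and A31, against 3.51 to 9.27 TPM in the wild-type hearts (log2 fold change 0.85 ± 0.56, adjusted p = 0.243, and 1.3 ± 0.38, adjusted p = 0.00651, without A29). Cd84, an adhesion receptor of the SLAM family, and Lair1, an inhibitory receptor for collagen, had log2 fold changes of 1.47 and 1.13 with all hearts and 1.95 and 1.56 without A29.

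**Figure D4:**
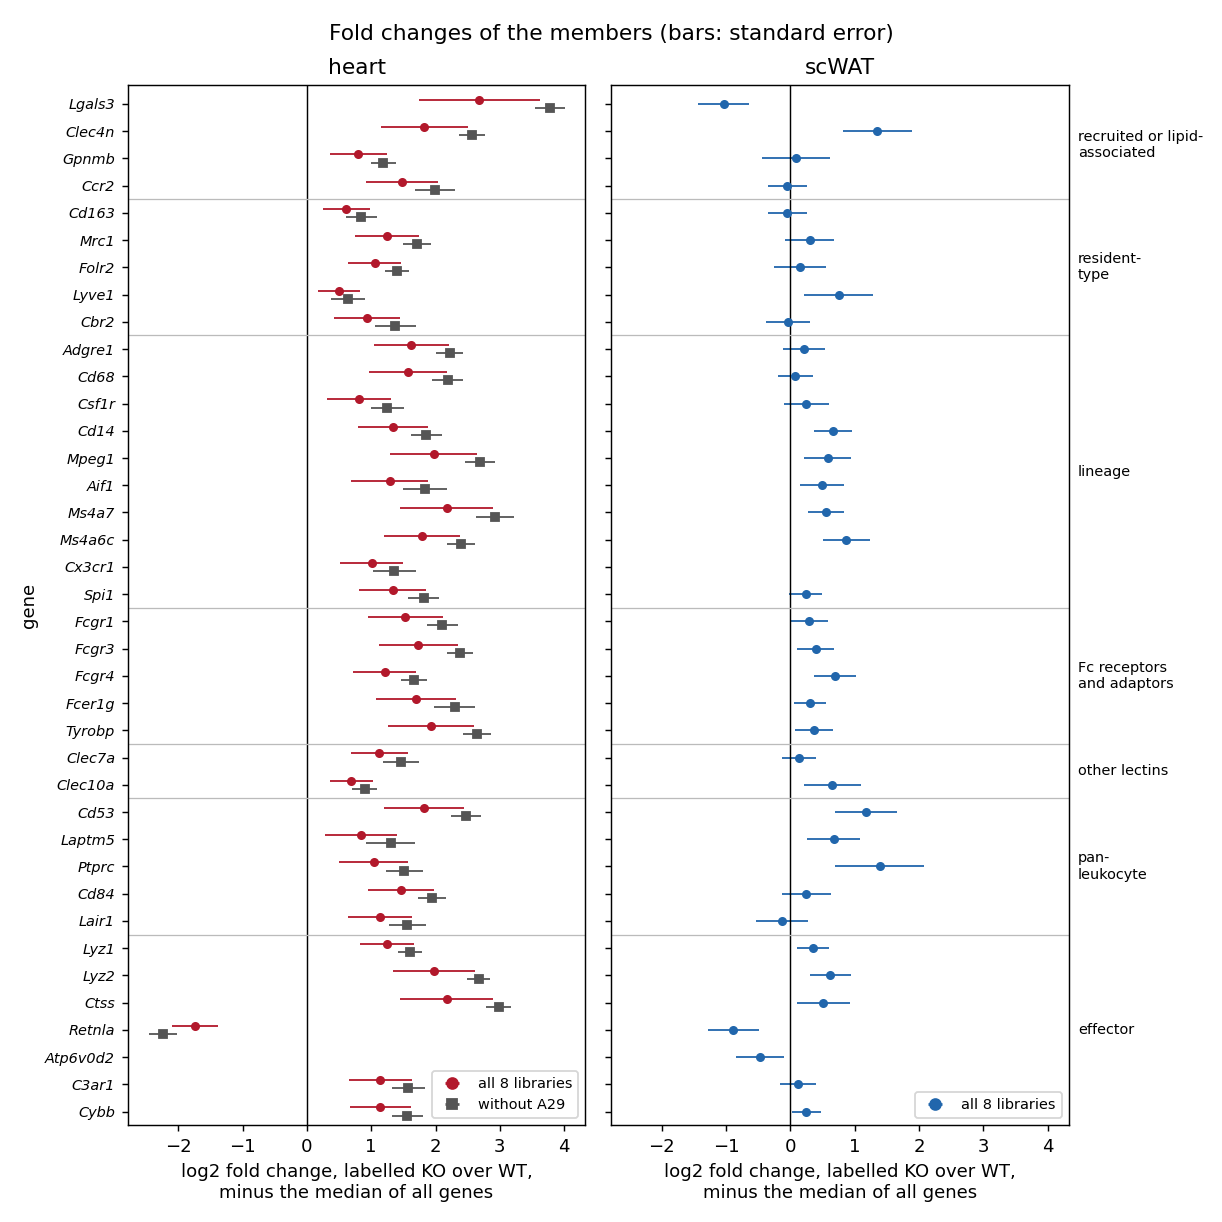
Log2 fold change of each member, labelled knockout over wild-type, minus the median of all tested genes, in heart (left; circles, all 8 libraries; squares, without A29) and scWAT (right; all 8 libraries); bars are standard errors, and genes under the level filter have no point. In heart every tested member but Retnla lies right of 0, with the recruited or lipid-associated gene Lgals3 farthest, and in scWAT most members lie within 1 of 0.

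Among the effector genes, Lyz2, the lysozyme of macrophages, had the highest level of the 38 in heart. It stood at 664, 679.6 and 886 TPM in the knockout-labelled hearts A25, A30 and A31, with 74.5 TPM in A29, against 72.3, 86, 115 and 82.5 TPM in the wild-type hearts (log2 fold change 1.98 ± 0.64, adjusted p = 0.142, and 2.67 ± 0.18, adjusted p = 6.50e-06, without A29). Lyz2 per Adgre1 overlapped between the groups, at 26.6 to 35.3 in A25, A30 and A31, against 23.5 to 33.6 in the wild-type hearts. Lyz1, the lysozyme of Paneth cells, stood at 5.37 to 6.18 TPM in A25, A30 and A31, against 0.454 to 1.13 TPM in the wild-type hearts (log2 fold change 1.24 ± 0.42, adjusted p = 0.142, and 1.6 ± 0.19, adjusted p = 7.05e-05, without A29). In every heart it came to between 0.528% and 1.04% of the Lyz2 level, and in scWAT to between 4.55% and 8.65%. The coding sequences of the pair, both on chromosome 10, are 95.1% identical over 447 bases in GENCODE M21, so how reads were shared between them could set the Lyz1 value, which is uncertain for that reason. The first 120 bases of both are given to show how alike they are, with the 11 differing bases in capitals.
Lyz1: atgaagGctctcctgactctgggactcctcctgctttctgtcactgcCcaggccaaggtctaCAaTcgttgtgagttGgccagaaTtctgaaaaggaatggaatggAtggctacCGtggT
Lyz2: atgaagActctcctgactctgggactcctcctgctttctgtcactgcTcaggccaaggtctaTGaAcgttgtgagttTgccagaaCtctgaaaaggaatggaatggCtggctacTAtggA

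Ctss, which encodes cathepsin S, the protease that frees MHC class II for antigen loading, stood at 104, 119 and 145 TPM in the knockout-labelled hearts A25, A30 and A31, with 8.04 TPM in A29, against 9.44, 12.9, 12.7 and 8.88 TPM in the wild-type hearts (log2 fold change 2.17 ± 0.72, adjusted p = 0.142, and 2.98 ± 0.19, adjusted p = 5.55e-06, without A29). Its log2 fold change was second to that of Lgals3 among the members, with and without A29. Cybb, the catalytic subunit of the phagocyte NADPH oxidase, stood at 7.97 to 14.3 TPM in A25, A30 and A31, against 1.57 to 2.85 TPM in the wild-type hearts. C3ar1, the receptor for complement fragment C3a, stood at 5.62 to 12.6 TPM, against 1.23 to 1.88 TPM. Atp6v0d2, a subunit of the proton pump of lysosomes, stood at 0.735 to 1.11 TPM in A25, A30 and A31, with 0.0592 TPM in A29, against 0.00948 to 0.235 TPM in the wild-type hearts, levels too low for the test.

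Retnla ran opposite to the other 37 genes. It encodes RELM alpha, a secreted protein that mouse macrophages make under interleukin-4 and that is also abundant in mouse white fat. It stood at 0.517, 0.315 and 0.093 TPM in the knockout-labelled hearts A25, A30 and A31 and 2.61 TPM in A29, against 2.91, 4.21, 5.1 and 2.84 TPM in the wild-type hearts (log2 fold change -1.74 ± 0.36, adjusted p = 0.142, and -2.24 ± 0.22, adjusted p = 0.000218, without A29). All 4 knockout-labelled hearts lay below all 4 wild-type hearts, as held for 0.634% of the tested genes, and A29 lay just under the wild-type range. Per Adgre1, Retnla was 0.00332 to 0.0275 in A25, A30 and A31 and 1.16 in A29, against 1.07 to 1.49 in the wild-type hearts. The adipocyte gene Adipoq, read beside it because fat has much Retnla, was at 0.107 to 0.336 TPM in A25, A30 and A31, with 0 TPM in A29, against 0.0207 to 1.72 TPM in the wild-type hearts; its part in the Retnla difference was not tested.

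Promoters of 5 members are given because these genes span the range of the heart values: Retnla, which was lower, Lgals3 with the largest step, Ccr2 and Fcgr4 of the monocyte and Fc receptor groups, and the resident-type gene Mrc1. Each is the stretch of 250 bases before the RefSeq start (GRCm38.p6, written 5′ to 3′ on the gene's strand), with each GAGGAA or its reverse complement TTCCTC, the purine-rich core that PU.1 can bind, in capitals. The Retnla window is chr16:48842359-48842608, that of Lgals3 chr14:47373610-47373859, that of Ccr2 chr9:124101933-124102182, that of Fcgr4 chr1:171018676-171018925 and that of Mrc1 chr2:14229164-14229413, all on the plus strand.
Retnla: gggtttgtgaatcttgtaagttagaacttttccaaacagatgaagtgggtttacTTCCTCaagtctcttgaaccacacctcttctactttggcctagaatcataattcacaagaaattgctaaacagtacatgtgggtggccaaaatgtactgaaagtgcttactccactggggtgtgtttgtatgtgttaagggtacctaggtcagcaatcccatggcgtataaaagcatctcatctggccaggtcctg
Lgals3: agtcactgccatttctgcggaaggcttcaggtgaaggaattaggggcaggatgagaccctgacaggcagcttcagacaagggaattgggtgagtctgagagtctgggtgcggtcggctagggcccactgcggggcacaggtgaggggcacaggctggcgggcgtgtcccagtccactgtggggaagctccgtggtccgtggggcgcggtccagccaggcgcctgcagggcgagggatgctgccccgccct
Ccr2: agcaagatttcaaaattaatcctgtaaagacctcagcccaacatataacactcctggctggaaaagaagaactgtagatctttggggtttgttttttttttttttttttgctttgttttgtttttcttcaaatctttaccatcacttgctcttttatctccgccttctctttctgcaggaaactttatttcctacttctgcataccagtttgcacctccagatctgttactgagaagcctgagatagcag
Fcgr4: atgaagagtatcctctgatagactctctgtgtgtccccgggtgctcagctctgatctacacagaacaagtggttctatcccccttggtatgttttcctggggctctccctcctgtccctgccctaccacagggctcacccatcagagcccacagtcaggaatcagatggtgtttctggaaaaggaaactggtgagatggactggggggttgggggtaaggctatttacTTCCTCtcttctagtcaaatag
Mrc1: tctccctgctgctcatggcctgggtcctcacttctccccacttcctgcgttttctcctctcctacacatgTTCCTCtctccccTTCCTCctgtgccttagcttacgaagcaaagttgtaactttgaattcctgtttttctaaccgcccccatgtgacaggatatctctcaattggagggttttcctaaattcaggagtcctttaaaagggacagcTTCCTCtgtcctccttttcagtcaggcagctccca

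The core was found 3 times in the Mrc1 window, once in those of Retnla and Fcgr4, and not in those of Lgals3 and Ccr2. So it was present in the gene that was lower and absent from the gene with the largest step. RefSeq windows were at hand for 29 of the 38 members, and 14 of these 29 (48.3%) held GAGGAA on either strand, against 25.9% of 27025 genes. The longer form GAGGAAGT, which contains the core, was in 2 of the 29 (Fcgr4 and Retnla), against 2.79% of genes. CACGTG, read the same on both strands and searched because lysosomal genes often carry it, was in 0 of the 29, against 6.86% of genes. Members with the core had a median log2 fold change of 1.69 in heart without A29, and members without it 1.95. A match is letters in a window and says nothing of binding.

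In scWAT the genotype label went with small differences, given here as log2 fold changes with no median subtracted. No member passed the threshold among the 37 tested, and over all 13682 tested genes 0.0146% were called higher and 0.00731% lower. Cx3cr1 had a mean under 1 TPM and was not tested. The lowest adjusted p of a member was 0.28, for Clec4n. Without adjustment, p was under 0.05 for Clec4n, Cd53, Ms4a6c and Cd14 with higher levels (4 members, against 8.11% of genes) and for Lgals3 with a lower one (1 member, against 7.52%). Library A26 was the highest of the 8 scWAT libraries for 19 of the 38 members. No share over all genes stands beside this count, so it does not show a trait particular to the members. Without A26 no member passed either, against 0.923% of genes called higher and 0.0447% lower. An unadjusted p under 0.05 was then left for 0 members with higher levels, against 6.06% of genes, and for Lgals3 and Lair1 with lower ones, against 4.03%. B cell genes (7 in the list) summed to 527 TPM in A26, against at most 23.6 TPM in the other scWAT libraries, and their part in the values of A26 was not tested.

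Clec4n stood at 5.1, 29.7 and 3.95 TPM in knockout-labelled scWAT of A24, A26 and A30, against 2.0, 3.68, 3.76, 1.82 and 2.81 TPM in the wild-type libraries (log2 fold change 1.39 ± 0.54, adjusted p = 0.28, and 0.56 ± 0.27, adjusted p = 0.521, without A26). It was the one member whose groups did not overlap, as held for 5.23% of tested genes in this direction and 5.06% in the other, where no member did, and its high mean came from A26. Lgals3 stood at 163, 174 and 117 TPM in scWAT of A24, A26 and A30, against 581, 384, 145, 229.6 and 325 TPM in the wild-type libraries (log2 fold change -1.0 ± 0.4, adjusted p = 0.284, and -1.11 ± 0.46, adjusted p = 0.482, without A26). Wild-type A8 lay inside the knockout-labelled range for Lgals3, and the 4 other wild-type libraries lay above it. Retnla stood at 1258, 396 and 1109 TPM in scWAT of A24, A26 and A30, against 1126, 1795, 1601, 1055 and 2090.1 TPM in the wild-type libraries (log2 fold change -0.85 ± 0.4, adjusted p = 0.339, and -0.33 ± 0.29, adjusted p = 0.711, without A26). Its low value came from A26, and A24 and A30 lay among the wild-type libraries.

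Ptprc stood at 16.5, 159 and 14.2 TPM in scWAT of A24, A26 and A30, against 7.65 to 16.9 TPM in wild-type scWAT, and Cd53 at 23.8, 96.6 and 17.1 TPM, against 10.7 to 17.9 TPM. For both genes A26 was far above all other scWAT libraries. The resident-type genes had log2 fold changes between -0.01 (Cd163) and 0.79 (Lyve1), with standard errors of 0.31 to 0.53 and an adjusted p of at least 0.466. Folr2, for example, stood at 162, 66 and 124 TPM in scWAT of A24, A26 and A30, against 68.2, 119.7, 131, 52.2 and 149 TPM in the wild-type libraries. Ccr2 stood at 14.5, 13.6 and 9.17 TPM, against 11.8, 20.1, 10.1, 7.11 and 16.1 TPM (log2 fold change -0.01 ± 0.3, adjusted p = 0.987, and -0.08 ± 0.36, adjusted p = 0.951, without A26). The recruited minus resident-type mean was -1.46, -0.57 and -1.97 in A24, A26 and A30, against -0.63, -1.4, -1.95, -0.9 and -1.13 in wild-type scWAT, with no gap between the groups.

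Whether the label went with a larger difference in heart than in scWAT was tested with an interaction of tissue and genotype over all 16 libraries. With all libraries none of the 36 members tested passed, and 0.00867% of the 11536 tested genes were called higher and 0.052% lower. Without adjustment, p was under 0.05 for 9 of the 36 in the higher direction, against 17% of genes, and for 0 in the lower, against 3.42%. Lgals3 had the lowest adjusted p, 0.101, with an interaction of 3.93 (SE 1.16), from log2 fold changes of opposite sign in heart and scWAT. Without A29, 29 of the 36 passed as higher, against 22.4% of genes, and 0 as lower, against 2.27%. Among the 36, Fcgr4, Clec10a, Gpnmb, Clec7a, Lyz1, Fcgr1 and Ccr2 had a wild-type heart mean under 1 TPM. They were tested in heart only through the high hearts, and neither the counts nor the shares here were limited to other genes. With A29 and A26 both left out, 28 passed as higher and 1 as lower (Retnla, whose interaction with all libraries was -0.63 and turned to 0.26 with a pseudocount of 5), against 22.2% and 2.77%, and with median-of-ratios scaling added 26 and 1, against 11.6% and 11.8%. Array weights on all 16 libraries gave 29 and 1, against 30% and 15.6%. A29 and A26 were left out after their values had been seen, and the weights came from the same values. So these calls are no independent test. Among the resident-type genes, Lyve1 had an interaction of 0.24 (SE 0.65, adjusted p = 0.822) without A29, and Lgals3 had 5.16 (SE 0.49, adjusted p = 1.01e-05). Interactions are given throughout with no median subtracted. Without A29 the median of all tested genes was 0.37, and after subtracting it Lyve1 was at -0.13 and Lgals3 at 4.79.

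Mouse A30, labelled knockout, gave both tissues. Its heart had 77.4 TPM of Lgals3 and 25.5 TPM of Adgre1, and its scWAT had 117 and 18.5 TPM. In its scWAT, the Lgals3 level was the lowest of the 8 scWAT libraries, while its heart held one of the 3 high levels. For Adgre1 the heart of this mouse exceeded its own fat. Its scWAT also had the highest summed level of the skeletal muscle genes among the 8 scWAT libraries, 6174 TPM. The part of muscle in this comparison was not tested.

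Between tissues of wild-type mice, all 38 genes had a lower mean in heart than in scWAT. Of the 37 tested, 37 passed as lower and 0 as higher, against 78.5% and 8.12% of 13093 genes. The median of all genes was -1.27, so most genes were lower in heart on this scale. The members' median was 1.37 below that, and Clec4n, Fcgr4 and Lair1 lay above the median of all genes. With median-of-ratios scaling 32 of 36 tested members passed as lower and 0 as higher, against 34.2% and 33.1% of genes, and Clec4n, Fcgr4, Lyve1 and Lair1 did not pass, with Clec4n at 0.26, above 0.

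Retnla differed most, at 2.91, 4.21, 5.1 and 2.84 TPM in wild-type hearts against 1126, 1795, 1601, 1055 and 2090.1 TPM in wild-type scWAT (log2 fold change -8.31 ± 0.23, adjusted p = 1.36e-11). Lgals3 followed, at 2.57 to 5.63 TPM in wild-type hearts against 145 to 581 TPM in wild-type scWAT (-6.05 ± 0.34). Clec10a was at 0.578 to 0.868 TPM in wild-type hearts against 47.6 to 161 TPM in wild-type scWAT (-5.62 ± 0.32). Clec4n differed least, at 0.829 to 1.79 TPM against 1.82 to 3.76 TPM (-0.68 ± 0.21). For 14 members the mean of hearts A25, A30 and A31 exceeded the mean of wild-type scWAT, among them Cx3cr1, Clec4n and Ms4a7. No resident-type gene was among the 14, and of the recruited or lipid-associated genes Clec4n alone was. The count of 14 has no share over all genes beside it, so it does not show a trait particular to the members or to either class.

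Other macrophage genes, in lists chosen with earlier results of these data known, followed the members in heart. None of the genes in the 7 lists passed with all 8 hearts, and the counts that follow leave out A29 and stand beside the same 34.8% of genes called higher. Genes with a wild-type mean under 1 TPM were tested only through the high hearts, so they are kept out of these counts. The 34.8% was taken over all 12081 tested genes, such genes included, so it is not a matched share. Of the other resident-type genes, 11 of 12 tested were higher without A29, among them Vsig4, a complement receptor, at 11.1, 13.4 and 20.6 TPM in hearts A25, A30 and A31 against 1.04 to 2.12 TPM in wild-type hearts, and C1qc, a chain of complement C1q, at 173, 179 and 190.5 TPM against 23.8 to 40.01 TPM. Selenop, a selenium carrier, was higher by less, at 369 to 455 TPM in A25, A30 and A31 against 129 to 174 TPM. Of the other lipid-associated genes, 11 of 11 were higher without A29, and 1 more was tested only through the high hearts. Spp1, which encodes osteopontin, stood at 19.1, 23 and 31.7 TPM in hearts A25, A30 and A31, with 0.076 TPM in A29, against 0.161 to 0.232 TPM in wild-type hearts (log2 fold change 3.02 ± 0.87, adjusted p = 0.142 with all hearts). Spp1 is that 1 gene, and its fold change was larger than that of any of the 38. The tetraspanins Cd9 and Cd63 stood at 57.7 to 65.2 and 184 to 204 TPM in A25, A30 and A31, against 9.77 to 19.9 and 32.8 to 56.8 TPM in wild-type hearts.

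Monocyte genes were higher for 3 of 4 without A29, and 1 more (Plac8) was tested only through the high hearts. The integrin gene Itgam was at 5.95 to 8.91 TPM in A25, A30 and A31 against 1.23 to 1.97 TPM in wild-type hearts, Plac8 at 2.59 to 10.4 TPM against 0.279 to 0.896 TPM, and Ace, which endothelium also makes, at 31.7 to 64.1 TPM against 9.84 to 21.1 TPM. Of the colony-stimulating factor genes, 2 of 3 were higher without A29, and 1 more was tested only through the high hearts. The ligand Il34 stood at 5.36 to 6.43 TPM against 2.32 to 3.05 TPM and the receptor Csf2ra at 4.85 to 14.9 TPM against 0.653 to 3.58 TPM, while Csf1, the main macrophage growth factor, overlapped at 10.5 to 26.3 TPM against 5.12 to 13.4 TPM (adjusted p = 0.228 without A29). Genes of inflammatory activation were higher for 4 of 5, among them the receptor Tlr2, and 6 more were tested only through the high hearts. The co-stimulator Cd80 and the prostaglandin synthase Ptgs2 are among these 6, with Ptgs2 at 2.62 to 3.44 TPM in A25, A30 and A31 against 0.111 to 0.244 TPM in wild-type hearts. Of the genes of alternative activation, Il4ra and Tgm2 were higher (2 of 2), and Il1rn was tested only through the high hearts. The lists held 10 monocyte, 6 colony-stimulating factor, 16 inflammatory activation and 8 alternative activation genes. Of these, in that order, 5, 4, 11 and 3 were tested without A29. In the same order, 4, 2, 3 and 4 were under 1 TPM in every heart. Of the phagocyte oxidase genes, Cyba, which encodes a membrane subunit, was higher without A29, at 52.7 to 57.5 TPM in A25, A30 and A31 against 16.3 to 26.6 TPM in wild-type hearts, and so was Ncf4, at 5.51 to 8.05 TPM against 0.654 to 1.52 TPM. In scWAT no gene of the 7 lists passed with all libraries.

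Markers of other cells were read in the same hearts, and none of them passed with all 8. The counts that follow leave out A29 and cover genes with a wild-type mean of at least 1 TPM. Over all 12081 genes tested without A29, with no such limit, 34.8% were called higher and 4.16% lower. Called higher were 0 of 2 neutrophil genes, 0 of 1 T cell gene, 0 of 1 B cell gene and 0 of 2 dendritic cell genes. The counts were 3 of 5 for mast cell genes, 2 of 6 for lymphatic genes and 6 of 6 for fibroblast genes. They were 0 of 7 for cardiomyocyte genes (3 were lower), 1 of 3 for adipocyte genes and 0 of 1 for skeletal muscle (1 was lower). Summed levels of the neutrophil list (11 genes, 8 of them under 1 TPM in every heart) were 3.67 to 10.9 TPM in A25, A30 and A31, against 2.11 to 8.71 TPM in wild-type hearts, with S100a8 at 0.824 to 3.34 TPM against 0.828 to 2.75 TPM. T cell genes summed to 4.17 to 6.5 TPM against 1.85 to 3.82 TPM, and Cd3e was under 1 TPM in every heart. B cell genes summed to 2.49 to 6.4 TPM against 1.68 to 4.19 TPM, and Cd79a was under 1 TPM in every heart. No gene of the lists was at 0 in all hearts.

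Dendritic cell genes summed to 11.8 to 15.1 TPM in A25, A30 and A31 against 3.21 to 8.07 TPM in wild-type hearts, with Flt3 under 1 TPM in every heart. Mast cell genes summed to 11.4 to 19.99 TPM against 3.14 to 10.1 TPM, with Cpa3 at 1.71 to 4.2 TPM against 0.467 to 1.45 TPM. Lymphatic endothelial genes summed to 94.9 to 124 TPM against 19.9 to 56.7 TPM. Prox1, the first gene of that list, overlapped at 1.82 to 7.55 TPM against 4.47 to 10.6 TPM, and its cell source in heart was not tested. Lyve1 is a gene of lymphatic endothelium too, and the part of that endothelium in its values was not tested. In scWAT A26 the lymphatic list summed to 1126 TPM, against at most 34.3 TPM in the other scWAT libraries.

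Fibroblast genes were high in the same 3 hearts as the 38 genes, and the summed level of cardiomyocyte genes overlapped between the groups. The 7 fibroblast genes summed to 1209.6 to 2331 TPM in A25, A30 and A31, with 230.1 TPM in A29, against 191 to 284 TPM in wild-type hearts, with Pdgfra at 8.77 to 14.7 TPM against 4.23 to 6.63 TPM. The 7 cardiomyocyte genes summed to 15866 to 22078 TPM in A25, A30 and A31, with 26939.9 TPM in A29, against 21824 to 30699 TPM in wild-type hearts. Myh6 stood at 1012 to 2933 TPM in A25, A30 and A31, against 2170.4 to 4769 TPM in wild-type hearts, an overlap that came from A30. Adipocyte genes summed to 699 to 791 TPM in A25, A30 and A31 against 345 to 769 TPM, and skeletal muscle genes to 799 to 1093 TPM against 1119 to 1412 TPM, with Myh4 at most 0.00464 TPM in any heart. The part of these cells in the differences of the macrophage genes was not tested.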

How the data were processed

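RNA of 16 tissue libraries had been sequenced after Trizol extraction and TruSeq library preparation from 1 ug of total RNA, per the labels' protocols. As deposited by the authors, the tables give each gene symbol its TPM, per the file headers, 1 table for each library, and the columns sum to 1000000. Which aligner, quantifier and genome build were used is not given in the sources used here. TPM keeps no read depth, so no counting interval could be given. Genes averaging 1 TPM or more across the compared libraries were tested on log2(TPM + 1), which understates changes of low genes, with limma 3.58.1 (trend) in R 4.3.3. P-values were adjusted after Benjamini and Hochberg over all tested genes at a threshold of 0.05, and the test was checked on simulated data.

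Heart and scWAT were fitted separately for the genotype label, wild-type libraries for tissue, and all libraries for the interaction. Each mouse counts once per tissue. Animal numbers in the library names tie tissues to 1 mouse, which was the block in an alternative fit. Other alternatives were pseudocounts of 0.25 and 5, no filter or 5 TPM, median-of-ratios scaling, removal of mitochondrially encoded genes, array weights, name style as a covariate and leaving out each library. All members are named or counted; of each pathway list the 3 genes with the lowest unadjusted p in heart were named, and of each cell type list the first gene. 1 gene that this rule selects is not reported here. Members and lists were chosen with earlier results of these data known.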

Additional observations from a re-analysis of the deposited data

Results flagged for a closer look

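In the knockout-labelled hearts, A29 stood apart for Lyz1, with 0.726 TPM as the lowest value and a gap to the next heart of 0.853 of the group's range. It stood apart for Retnla too, with 2.61 TPM as the highest value and a gap of 0.831 of the range. For 4 samples the critical value of Dixon's test is 0.829. Of 114 groups of values tested, 2 passed it, and chance alone passes about 1 in 20. Lyz1 values are uncertain, since its coding sequence is 95.1% identical to that of Lyz2 and how reads were shared was not tested.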

How the results depend on the processing

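With all 8 hearts 0 members passed under either pseudocount, either filter, median-of-ratios scaling or removal of mitochondrially encoded genes. Array weights gave 36 higher and 1 lower. Leaving out each heart in turn gave 0 to 36 higher and 0 to 1 lower, and the calls came from leaving out A29. Without A29 and with median-of-ratios scaling, a combination chosen after seeing the data, the counts were 35 and 1. The interaction gave 29 higher and 1 lower with array weights, 0 to 29 higher when each library was left out in turn (29 without A29), and 28 and 1 without A29 and A26. With median-of-ratios scaling added to that it gave 26 and 1. With the mouse as a replicate block, 37 members were lower in heart than scWAT of wild-type mice, against 78.4% of 13093 genes. The interaction in that setting called 0 members in either direction, against 0.00867% of genes higher and 0.052% lower.

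Some values changed sign. Clec4n between wild-type tissues, called lower at -0.68, was -0.78 to -0.57 with each library left out and 0.26 under median-of-ratios scaling. In scWAT, Cbr2 was -0.029 with median-of-ratios scaling. Without mitochondrially encoded genes Cd163 was 0.032 and Ccr2 was 0.029, and Ccr2 was 0.0081 with name style as a covariate. Leaving out each scWAT library gave -0.093 to 0.55 for Folr2, -0.29 to 0.34 for Cbr2, -0.19 to 0.16 for Cd163, -0.19 to 0.18 for Ccr2 and -0.43 to 0.41 for Gpnmb. The interaction of Lyve1 was 0.71 with array weights, 0.38 without A29 and A26 and -0.26 to 0.39 with each library left out. That of Retnla, -0.63 with all libraries, was 0.26 with a pseudocount of 5 and -1.16 to -0.32 with each library left out. The recruited minus resident-type difference in heart was 1.05 with a pseudocount of 0.25 and 0.395 with 5, and 0.989 without mitochondrially encoded genes, against 0.83. The cause of these changes was not tested. Unknown depth limits values near 0 TPM.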
